A study of Mus musculus with 12 samples.

Results

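The comparison set LSK cells mobilized into blood by G-CSF (3 arrays) against LSK cells mobilized by either of 2 receptor-targeted treatments, AMD3100 (3 arrays) and CWHM-823+tGro-b (3 arrays). It used 9 of the 12 arrays of the study. Arrays were taken by their titles and by the blood label, and the 3 PBS arrays, made from marrow LSK cells, served as levels shown beside named genes and entered no test. All mice were male DBA2/J animals. LSK cells are lineage-negative, Sca-1-positive, Kit-positive cells, the marrow fraction that holds hematopoietic stem cells and early progenitors. In each group red cells were removed, Kit-positive cells were enriched and LSK cells were flow sorted. G-CSF was given for 5 days as 9 injections, AMD3100 for 1 hour, and no time is labelled for CWHM-823+tGro-b. A cytokine course of days was thus set against at least 1 treatment of an hour, and duration and agent cannot be told apart. The treatment field of the labels also lists a shorter G-CSF course and an agent that no array of the study carries. RNA was amplified and labelled with Cy5 for 1-colour Agilent arrays. The labels leave unsaid whether replicate arrays are separate animals, so a p-value here reflects array-to-array spread, which may be technical.

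Granulocyte colony-stimulating factor (G-CSF) acts through a receptor encoded by Csf3r, whose Janus kinases activate STAT3; SOCS3 is the feedback inhibitor of that pathway. G-CSF drives granulocyte production and releases progenitors from marrow over days, largely through changes in the marrow environment. AMD3100 (plerixafor) blocks CXCR4, the receptor for the marrow chemokine CXCL12. CWHM-823 blocks the integrin VLA-4, which holds progenitors to VCAM-1, and tGro-b is a truncated form of the CXCR2 ligand Gro-beta; both kinds of treatment mobilize quickly. LSK cells include multipotent progenitors already biased toward lymphoid or myeloid fates, so a change in their makeup and a change within cells both alter the signal of the bulk sample. In such samples fewer cells of a type and less RNA per cell cannot be told apart.

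Array levels are given as log2 signal relative to the array's own 75th percentile, called the log2 level here. Before scaling that percentile was 2117.3 to 2633.8 on G-CSF arrays, 1083.9 to 1498.6 on AMD3100 arrays and 1817.8 to 1924 on CWHM-823+tGro-b arrays, so the AMD3100 arrays were the dimmest. On blood arrays 70.8 to 80.6% of probes were well above background and none was saturated. All 14 LSK marker genes on the marker list were measured, and 14, 13 and 14 of them were above background on every G-CSF, AMD3100 and CWHM-823+tGro-b array. Replicate numbers coincided with array slides, each slide holding 1 array of every group, and slide was a term in the fit.

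Both a loose and a strict criterion were read side by side. A gene passed the pooled comparison when G-CSF differed from the mean of the other treatments at an adjusted p under 0.05. A gene was set apart when it also differed, in the same direction and at the same threshold, from AMD3100 and from CWHM-823+tGro-b taken alone. Of 23391 genes, 210 were set apart, which is 0.898% (121 higher, 0.517%, and 89 lower, 0.38%). The pooled comparison passed 10389 genes, or 44.4% (3634 higher, 15.5%, and 6755 lower, 28.9%), and 10337 of them, 44.2% of all genes, lay in the same direction against each treatment. G-CSF against AMD3100 alone passed 14096 genes, or 60.3% (21.6% higher and 38.6% lower). G-CSF against CWHM-823+tGro-b alone passed 232, or 0.992% (0.539% higher and 0.453% lower). CWHM-823+tGro-b against AMD3100 passed 1802, or 7.7% (3.95% higher and 3.76% lower). The comparisons with each treatment share the 3 G-CSF arrays and are not independent. Few genes passed against CWHM-823+tGro-b, and that requirement bounds the set-apart count. Counts for each gene or marker list below are to be read beside the shares over all genes. In the pooled comparison 15.5% passed as higher and 28.9% as lower, and 0.517% and 0.38% were set apart as higher and lower.

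The pooled count rests heavily on the fit. Besides set-apart genes, the text below describes list counts and single genes that passed only the pooled comparison, and these share that dependence. Without the slide term the pooled count was 659 and the set-apart count 97. The direction of the pooled calls also moved with scaling: the median log2 difference over all genes was -0.27 in the pooled comparison, and it was -0.59 in the dimmest 5847 genes and 0.06 in the brightest 5848. After quantile normalization these were -0.16 and 0.05, and the pooled calls divided into 3928 higher and 3863 lower; in the authors' table they divided into 3727 and 3873. The set-apart genes divided into 124 higher and 59 lower after quantile normalization and into 179 and 72 after normexp background correction. Among the 210 set-apart genes the median size of the log2 difference was 1.77, a fold of 3.4, and the smallest was 0.86. In 210 of 210 the G-CSF array lay beyond the AMD3100 and the CWHM-823+tGro-b array of its slide, on every slide, which the criterion itself favours. Of the 210, 152 were above background on all 9 blood arrays, and 26 also differed between CWHM-823+tGro-b and AMD3100.

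**Figure D1:**
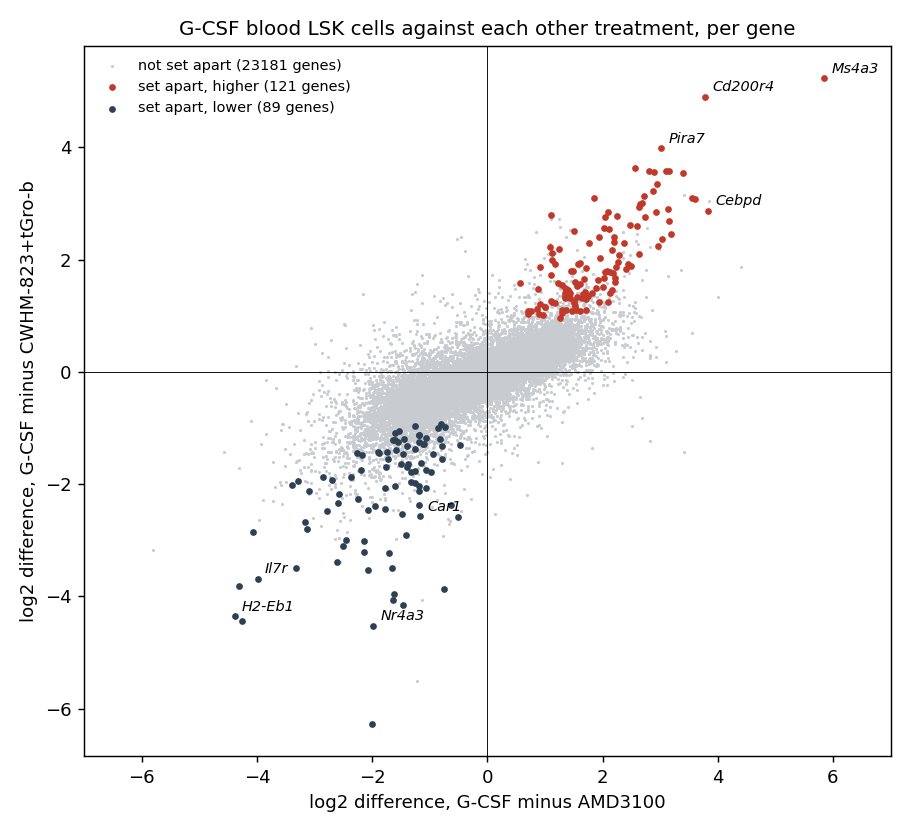
Each point is 1 of 23391 genes; the x axis is the log2 difference G-CSF minus AMD3100 and the y axis the log2 difference G-CSF minus CWHM-823+tGro-b, so both axes share the G-CSF arrays. The 121 genes set apart as higher lie in the upper right and the 89 set apart as lower in the lower left, with Ms4a3 at 5.85 and 5.23 and H2-Eb1 at -4.39 and -4.35.

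Among targets and feedback genes of the G-CSF receptor and STAT3 pathway, more passed as higher than as lower in G-CSF cells. Of 29 measured members of that list, 5 were set apart as higher (Bcl3, Cebpd, Pim1, Pim2 and Il4ra) and 1 as lower (Fosl2). In the pooled comparison 18 passed as higher, 9 did not pass and 2 passed as lower, the lower ones being Fosl2 and the Csf3r probe described further on. The list's median log2 difference was 0.72 pooled, 0.83 against AMD3100 and 0.39 against CWHM-823+tGro-b, beside -0.27, -0.37 and -0.15 over all genes. Its median level per array was 1.72, 1.27 and 1.58 in G-CSF cells, 0.54, 0.43 and 0.42 in AMD3100 cells and 1.30, 1.02 and 1.04 in CWHM-823+tGro-b cells, against 0.50, -0.43 and 0.47 in marrow. The G-CSF array was the highest on each slide, although across slides the lowest G-CSF value, 1.27, lay under the highest CWHM-823+tGro-b value, 1.30.

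Bcl3 encodes a nuclear partner of NF-kB and is a known STAT3 target; its probe lies at chr7:20393826-20393885 (mm9). Its log2 level was 1.42, 1.01 and 1.60 on G-CSF arrays, -1.98, -1.83 and -1.54 on AMD3100 arrays, -1.44, -1.53 and -1.70 on CWHM-823+tGro-b arrays, and -1.76, -1.87 and -2.03 on marrow arrays. All G-CSF values lay above all others, and the other blood groups lay close to marrow. The pooled difference was 3.02 ± 0.18 (SE), or 8.09-fold (adjusted p = 0.00198).

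Cebpd encodes C/EBP-delta, a myeloid transcription factor induced by STAT3 signalling (probe at chr16:15888459-15888518). It had log2 levels of 0.23, -0.74 and -0.34 in G-CSF cells, against -3.22, -3.69 and -5.42 in AMD3100 cells and -2.67, -3.18 and -3.60 in CWHM-823+tGro-b cells. One AMD3100 array and all 3 marrow arrays were not well above background for it. The pooled difference was 3.35 ± 0.33 (10.2-fold, adjusted p = 0.00646), and the difference from CWHM-823+tGro-b alone was 2.87 (adjusted p = 0.0264). Cebpa and Cebpb, the other myeloid C/EBP factors always reported here, differed by 0.98 (adjusted p = 0.0137) and 0.97 (adjusted p = 0.0146) in the pooled comparison and were not set apart.

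The PIM kinases, survival kinases downstream of STAT signalling, were higher as a pair. Pim1 had log2 levels of 3.23, 2.60 and 3.24 in G-CSF cells, 1.29, 1.14 and 1.52 in AMD3100 cells and 1.96, 1.74 and 2.02 in CWHM-823+tGro-b cells. Pim2 had 1.68, 1.27 and 1.76 in G-CSF cells, -0.77, -0.80 and -0.10 in AMD3100 cells and 0.10, -0.37 and -0.36 in CWHM-823+tGro-b cells. No G-CSF array overlapped another blood array for either gene. The pooled differences were 1.41 ± 0.14 for Pim1 and 1.95 ± 0.20 for Pim2 (adjusted p = 0.00646 for each). Il4ra, the interleukin-4 receptor alpha chain, was 2.70-fold higher (adjusted p = 0.00933).

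Socs3 passed the pooled comparison but was not set apart. Its log2 level was 4.02, 3.77 and 4.13 in G-CSF cells, 1.88, 1.99 and 2.30 in AMD3100 cells and 3.19, 2.87 and 1.85 in CWHM-823+tGro-b cells, against -0.22, -0.49 and -0.56 in marrow. The G-CSF arrays lay above all others, the CWHM-823+tGro-b arrays were spread and overlapped the AMD3100 arrays, and all blood groups lay above marrow. Its difference was 1.91 against AMD3100 (adjusted p = 0.00682) and 1.34 against CWHM-823+tGro-b (adjusted p = 0.129). Stat3 showed the same division, with 0.83 against AMD3100 (adjusted p = 0.0072) and 0.61 against CWHM-823+tGro-b (adjusted p = 0.128).

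STAT dimers bind the palindrome TTCNNNGAA, which reads the same on both strands, so the 250 bases before the start site (RefSeq, GRCm38.p6) are shown for the feedback gene Socs3, for Csf2rb2 and Sbno2 among the largest increases, and for Il7r among the decreases. Capitals mark the match, whose first base lies 154, 15, 26 and 142 bases before the start in that order.
Socs3, chr11:117969367-117969616, minus strand: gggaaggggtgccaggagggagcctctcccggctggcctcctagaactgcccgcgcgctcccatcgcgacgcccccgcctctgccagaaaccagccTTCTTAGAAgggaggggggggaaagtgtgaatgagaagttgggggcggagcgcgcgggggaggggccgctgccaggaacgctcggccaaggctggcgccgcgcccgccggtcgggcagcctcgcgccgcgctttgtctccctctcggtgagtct
Csf2rb2, chr15:78305722-78305971, minus strand: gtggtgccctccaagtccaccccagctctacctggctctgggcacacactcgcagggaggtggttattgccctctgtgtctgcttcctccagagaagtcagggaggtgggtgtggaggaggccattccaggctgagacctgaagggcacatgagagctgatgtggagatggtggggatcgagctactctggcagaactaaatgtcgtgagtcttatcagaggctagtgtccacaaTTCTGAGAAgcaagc
Sbno2, chr10:80102703-80102952, minus strand: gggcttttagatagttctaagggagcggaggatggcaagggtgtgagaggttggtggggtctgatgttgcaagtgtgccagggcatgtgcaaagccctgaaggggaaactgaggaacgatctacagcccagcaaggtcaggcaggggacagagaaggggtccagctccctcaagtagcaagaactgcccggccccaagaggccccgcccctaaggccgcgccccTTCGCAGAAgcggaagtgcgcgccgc
Il7r, chr15:9529877-9530126, minus strand: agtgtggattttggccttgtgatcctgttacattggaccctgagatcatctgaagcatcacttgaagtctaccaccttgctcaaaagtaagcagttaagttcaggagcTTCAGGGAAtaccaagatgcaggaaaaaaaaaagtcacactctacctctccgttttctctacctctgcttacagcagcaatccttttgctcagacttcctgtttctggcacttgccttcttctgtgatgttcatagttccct
The RefSeq promoter table held 82 of the 121 higher genes and 50 of the 89 lower ones. The 300-base window of that table, which runs 50 bases past the start, had a match for 9 of the 82 (11%) and for 3 of the 50 (6%), beside 2582 of all 27025 genes (9.55%). On the G-CSF receptor and STAT3 pathway list 3 of 25 genes with a promoter had a match (12%): Bcl6, Cish and Socs3. Bcl3, Cebpd, Pim1, Pim2 and Il4ra were not among them. The genes printed above were taken from those with a match. A match is a string of letters and says nothing of binding.

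No receptor level is given for Csf3r. Its only probe on the array maps to chr19:60157892-60157951 (mm9) while the gene table places Csf3r on chromosome 4. The last 30 bases of the probe are shown with the final 17 in capitals, because 4 other probes among 39429 carry that run on either strand.
Csf3r probe, chr19:60157922-60157951: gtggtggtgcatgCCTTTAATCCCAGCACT
This probe alone gave -0.56 (adjusted p = 0.0295) and was one of the 2 decreases counted for the pathway list.

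Some genes of granulocyte-monocyte progenitors were also set apart as higher. Of 26 measured, 7 were set apart as higher and 0 as lower, while 13 passed as higher and 3 as lower in the pooled comparison, with a median log2 difference of 0.59. The 7 were Ms4a3, Csf2rb2, Csf2rb, Prtn3, Ctsg, Serpinb1a and Cst7. Ms4a3 encodes a membrane protein that marks granulocyte-monocyte progenitors. It had log2 levels of 1.06, 0.60 and -0.08 in G-CSF cells, against -5.50, -4.58 and -5.88 in AMD3100 cells and -4.07, -3.82 and -6.22 in CWHM-823+tGro-b cells. It was above background on 3 of 3 G-CSF arrays, 0 of 3 AMD3100 arrays and 1 of 3 CWHM-823+tGro-b arrays. Every AMD3100 and CWHM-823+tGro-b array that was not above background was held at the lowest signal above background on that array. The level in G-CSF cells was then at least 19.4-fold higher. The measured difference was 5.54 (adjusted p = 0.00198), and that p does not belong to the bound.

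Csf2rb encodes the beta chain shared by the receptors for interleukin-3, interleukin-5 and GM-CSF, and Csf2rb2 is its mouse paralog. Csf2rb2 had log2 levels of 2.61, 2.52 and 3.02 in G-CSF cells, -0.30, -0.22 and 0.05 in AMD3100 cells and -0.78, -0.48 and -0.23 in CWHM-823+tGro-b cells, with marrow at -0.70, -0.50 and -0.40. Csf2rb had 4.0, 3.42 and 4.11 in G-CSF cells, 1.81, 1.68 and 2.24 in AMD3100 cells and 1.58, 1.06 and 1.67 in CWHM-823+tGro-b cells. The other 3 groups clustered for each gene, and the longest run that any Csf2rb probe shares with a Csf2rb2 probe is 10 bases. The pooled differences were 3.05 ± 0.13 (8.26-fold, adjusted p = 0.00158) and 2.17 ± 0.14 (4.50-fold, adjusted p = 0.00234). A dimmer Csf2rb2 probe differed by 1.33.

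Proteases of primary granules did not move as a block. Prtn3 (proteinase 3) was 3.17-fold higher (adjusted p = 0.00862) and Ctsg (cathepsin G) 3.12-fold higher (adjusted p = 0.00646). Elane, neutrophil elastase, differed by 2.05 ± 0.38 pooled (adjusted p = 0.0152) but by 1.71 with an adjusted p of 0.13 against CWHM-823+tGro-b. Mpo, myeloperoxidase, was bright in every group, with log2 levels of 4.42, 3.89 and 4.23 in G-CSF cells, 4.14, 3.55 and 4.06 in AMD3100 cells and 4.17, 3.47 and 4.11 in CWHM-823+tGro-b cells; its difference was 0.26 ± 0.13 (adjusted p = 0.123). Irf8, the monocyte and dendritic lineage factor, was lower by the pooled comparison, -1.02 ± 0.19 (adjusted p = 0.0149), and not set apart.

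Markers of mature neutrophils were read beside these increases. Of 12 neutrophil markers 8 were measured, 0 passed as higher and 3 passed as lower. Over all genes 15.5% passed as higher and 28.9% as lower, so these counts lie near the background. The markers' log2 differences ran from -1.20 to 1.65. Their summed level, on the log2 scale, was 1.13 to 1.51 in G-CSF cells, 1.39 to 2.19 in AMD3100 cells and 0.98 to 1.67 in CWHM-823+tGro-b cells. For monocyte and macrophage markers, 12 of 14 measured, the ranges were 4.89 to 5.08, 5.24 to 5.32 and 4.70 to 5.32 in the same groups.

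Immunoglobulin-like receptors of myeloid cells were also among the set-apart genes; apart from Pirb, Pira7 and Cd200r4, those named here were picked after their values were seen. Pirb, an inhibitory paired receptor for MHC class I, had log2 levels of 1.47, 1.53 and 1.46 in G-CSF cells, -1.53, -1.17 and -1.24 in AMD3100 cells and -1.52, -2.41 and -2.38 in CWHM-823+tGro-b cells. Its pooled difference was 3.19 ± 0.23 (9.13-fold, adjusted p = 0.00355). Activating members and relatives were higher too: Pira6 by 1.39, Pira2 by 1.56 and Lilra6 by 1.65 on the log2 scale. Pira7, Pira11 and Gm14548 were above background on 3 of 3 G-CSF arrays and on none of the other 9 arrays, giving at least 5.50-fold, 1.62-fold and 2.55-fold higher levels. Cd200r4 is an activating relative of the CD200 receptor on the mast cell and basophil list. It exceeded background on all 3 arrays from G-CSF mice and on 1 from AMD3100 mice. With the arrays below background held in the same way, its level was at least 8.23-fold higher. Its measured difference was 4.34 (adjusted p = 0.0108).

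These probes do not count the family members separately. The Pira7 and Pira11 probes overlap by 24 bases on chromosome 7, and the Gm14548 probe pairs with 55 bases of the Pira7 probe with 1 mismatch. The run shared by the Pira7 and Pira11 probes is shown, with capitals for the bases that the aligned Gm14548 probe holds as well.
Pira7 and Pira11 probes, chr7:3789757-3789780: CAATGTTCTACACtCTGGGAAATA
The probes for Mrgpra2a and Mrgpra2b, sensory-type G-protein coupled receptors, share 55 bases without a mismatch. Their pooled differences, 3.23 and 2.78, are in effect a repeat of the same measurement.

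Adhesion, matrix and cytoskeleton genes also included set-apart increases. Of 28 measured lamin and cytoskeleton genes, 7 were set apart as higher and 0 as lower; 19 passed as higher and 1 as lower in the pooled comparison, and the median log2 difference was 0.68. The 7 were the calcium-binding proteins S100a4 and S100a6, the annexins Anxa1 and Anxa2, the galectins Lgals1 and Lgals3, and the tropomyosin Tpm4. S100a6 had log2 levels of 2.36, 1.91 and 1.80 in G-CSF cells, -0.99, -0.54 and -1.15 in AMD3100 cells and -0.23, -0.76 and -1.49 in CWHM-823+tGro-b cells, a pooled difference of 2.89 ± 0.22 (adjusted p = 0.00389). S100a4 was bright in every blood group, at 4.68, 4.53 and 4.66 in G-CSF cells, 2.40, 2.31 and 3.01 in AMD3100 cells and 2.24, 1.83 and 1.52 in CWHM-823+tGro-b cells, with marrow lower still at 0.21, 0.82 and 1.31. Anxa2 differed by 2.60 ± 0.25 (adjusted p = 0.00646) and Lgals3 by 2.47 ± 0.35 (adjusted p = 0.0116). Actb, cytoskeletal actin, differed by 0.02, and the nuclear lamin Lmna by 0.69 without being set apart.

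Selp encodes P-selectin, an adhesion receptor of platelets and endothelium, and was the largest increase among genes measured on all blood arrays. Its probe lies at chr1:166079660-166079719. It had log2 levels of 1.79, 1.43 and 1.53 in G-CSF cells, -1.87, -1.93 and -1.63 in AMD3100 cells and -1.68, -1.75 and -2.48 in CWHM-823+tGro-b cells, against -3.60, -3.17 and -3.26 in marrow. The pooled difference was 3.47 ± 0.21 (11.1-fold, adjusted p = 0.00198). Of 33 adhesion and homing genes measured, 3 were set apart, all higher: Selp, the tetraspanin Cd9 (2.93-fold) and the integrin chain Itgb7 (2.11-fold). Pooled, 15 passed as higher and 6 as lower, with a median of 0.46.

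Because Selp and Cd9 are platelet genes, platelet markers were read beside them. Of 6 platelet markers measured, 0 passed as higher and 3 as lower, beside 15.5% and 28.9% of all genes. Their summed log2 level was 1.81 to 2.79 in G-CSF cells, 2.69 to 3.08 in AMD3100 cells and 2.55 to 3.06 in CWHM-823+tGro-b cells. On the wider megakaryocyte and platelet list, 2 of 22 were set apart as higher, Selp and Cd9, and 1 as lower, the matrix glycoprotein Thbs1. Endothelial and stromal markers, 11 of 13 measured, summed to 2.81 to 3.05, 3.11 to 3.24 and 2.74 to 2.97 in G-CSF, AMD3100 and CWHM-823+tGro-b cells. Their part in the results was not tested.

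A pair of secreted matrix genes were close behind Selp. Col18a1, the collagen whose fragment is endostatin, had log2 levels of 1.78, 1.36 and 1.57 in G-CSF cells, -1.66, -1.65 and -1.27 in AMD3100 cells and -1.82, -1.82 and -2.36 in CWHM-823+tGro-b cells (3.33 ± 0.20, adjusted p = 0.00198). Tgfbi, a TGF-beta-induced adhesion protein, had 1.53, 1.18 and 1.46 in G-CSF cells, -1.25, -1.88 and -2.20 in AMD3100 cells and -2.44, -1.62 and -2.51 in CWHM-823+tGro-b cells (3.37 ± 0.27, adjusted p = 0.00392). Marrow was the lowest group for Col18a1, at -3.34, -2.87 and -3.02. On the matrix and protease list 2 of 24 measured genes, Col18a1 and Ctsg, were set apart, and the list's median was -0.01.

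The remaining largest increases came from genes of varied function. Dlk1, an imprinted Notch-ligand-like protein, had log2 levels of 2.40, 2.20 and 2.11 in G-CSF cells, -0.91, -0.43 and -0.79 in AMD3100 cells and -1.13, -0.98 and -1.24 in CWHM-823+tGro-b cells, a pooled difference of 3.15 ± 0.15 (8.89-fold, adjusted p = 0.00158). Meg3, the maternally expressed RNA of the same imprinted cluster, was picked after its value was seen and was 4.49-fold higher (adjusted p = 0.0049). The transcriptional repressor Bhlhe40 was 10.1-fold higher (adjusted p = 0.00383), the lipoprotein receptor Vldlr 6.51-fold (adjusted p = 0.00158) and the co-regulator Sbno2 7.09-fold (adjusted p = 0.0077). Vldlr and Sbno2 each have a dimmer probe, which differed by only 0.12 for Vldlr and by 1.60 for Sbno2 on the log2 scale. Among genes above background on every G-CSF array and on no other blood array, the actin regulator Eps8 was at least 3.44-fold higher. Its measured difference was 3.33 (adjusted p = 0.00392). The kinase gene Map3k8 was at least 4.37-fold higher, with a measured difference of 3.28 (adjusted p = 0.011). It was not set apart, since its adjusted p against CWHM-823+tGro-b was 0.0531.

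Pro-apoptotic BH3-only genes were part of the increase. Pmaip1, which encodes NOXA, had log2 levels of 1.36, 0.97 and 0.88 in G-CSF cells, -1.73, -2.16 and -2.37 in AMD3100 cells and -1.74, -1.46 and -1.64 in CWHM-823+tGro-b cells, with marrow at -3.21, -2.98 and -2.60. Its pooled difference was 2.92 ± 0.17 (7.56-fold, adjusted p = 0.00198). Bbc3, which encodes PUMA, was 2.56-fold higher (adjusted p = 0.00878), although its marrow levels of 0.00, -0.09 and -0.45 lay near the G-CSF levels of 0.22, 0.19 and 0.84. These 2 were the set-apart genes among 15 measured Bcl2-family genes, of which 7 passed as higher and 2 as lower in the pooled comparison. The survival gene Mcl1 passed at 0.72 (adjusted p = 0.0146) without being set apart.

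**Figure D2:**
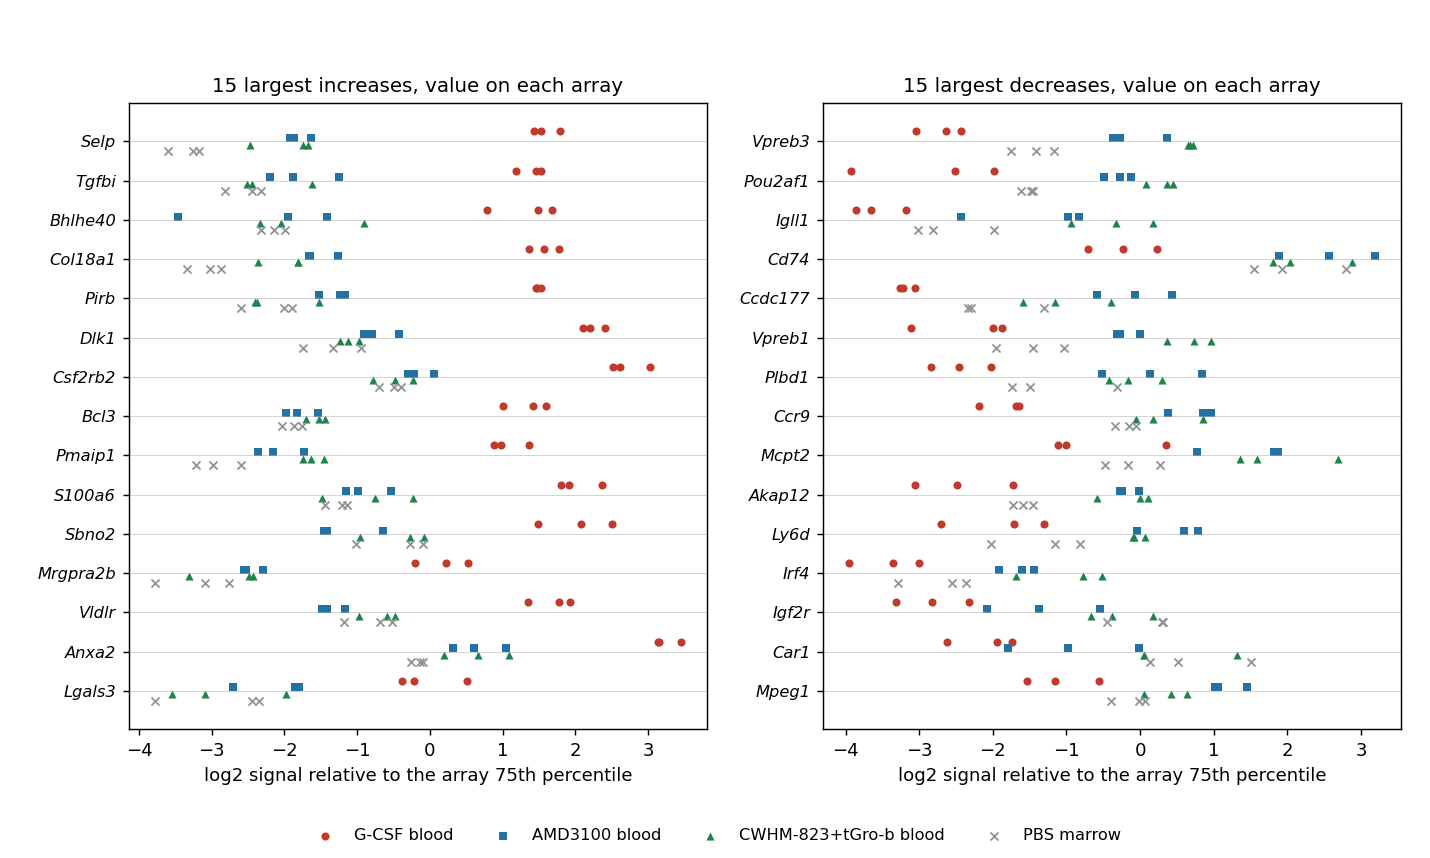
Log2 signal relative to the array's 75th percentile (x axis) for the 15 largest increases (left) and 15 largest decreases (right) among genes above background on all 9 blood arrays. Each mark is 1 array; for Selp the G-CSF arrays sit at 1.43 to 1.79 and the other blood arrays at -2.48 to -1.63, and for Vpreb3 the G-CSF arrays sit at -3.04 to -2.43 and the other blood arrays at -0.37 to 0.72.

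Lymphoid genes were among the decreases. Of 28 lymphoid priming genes measured, 0 were set apart as higher and 8 as lower: Il7r, Blnk, Igll1, Vpreb1, Ccr9, Pax5, Dntt and Flt3. In the pooled comparison 2 passed as higher and 17 as lower, beside 15.5% and 28.9% of all genes. The median log2 difference was -0.67 pooled, -0.94 against AMD3100 and -0.66 against CWHM-823+tGro-b. The list's median level per array was -0.30, 0.07 and -0.64 in G-CSF cells, 0.76, 0.62 and 0.84 in AMD3100 cells and 0.67, 0.70 and 0.45 in CWHM-823+tGro-b cells; marrow lay between, at 0.21, 0.17 and -0.10. The G-CSF arrays did not overlap the other blood arrays.

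Il7r encodes the interleukin-7 receptor needed for early B and T cell development (probe at chr15:9435976-9436035). It was above background on 0 of 3 G-CSF arrays and on 3 of 3 arrays of each other treatment. The measured log2 levels were -4.45, -5.98 and -6.50 in G-CSF cells, -2.15, -1.75 and -1.06 in AMD3100 cells and -2.04, -2.25 and -1.61 in CWHM-823+tGro-b cells. The level in G-CSF cells was thus at least 5.88-fold lower, and the measured difference was -3.83 (adjusted p = 0.00896). Dntt, which encodes terminal transferase and marks lymphoid-biased progenitors, was bright in all groups, at 3.05, 2.80 and 3.01 in G-CSF cells, 4.40, 4.21 and 4.90 in AMD3100 cells and 4.24, 3.84 and 4.50 in CWHM-823+tGro-b cells (-1.40 ± 0.15, adjusted p = 0.00733). Flt3, the cytokine receptor of lymphoid-primed multipotent progenitors, differed by -1.11 ± 0.13 (adjusted p = 0.00843), and Ccr9, a thymus-homing chemokine receptor, by -2.37 ± 0.21 (adjusted p = 0.00488).

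Vpreb1 and Igll1 encode parts of the surrogate light chain, which early B-lineage cells put on their surface before a rearranged light chain. They were lower together, and Vpreb3 was lower as well. Vpreb1 had log2 levels of -2.0, -3.11 and -1.88 in G-CSF cells, -0.31, -0.27 and 0.00 in AMD3100 cells and 0.73, 0.96 and 0.36 in CWHM-823+tGro-b cells. Igll1 had -3.66, -3.18 and -3.86 in G-CSF cells, -0.98, -2.43 and -0.83 in AMD3100 cells and 0.17, -0.33 and -0.94 in CWHM-823+tGro-b cells. Vpreb3 had -2.63, -2.43 and -3.04 in G-CSF cells, -0.27, -0.37 and 0.37 in AMD3100 cells and 0.65, 0.72 and 0.68 in CWHM-823+tGro-b cells. No G-CSF array reached another blood array for these genes, and the marrow means of -1.49 for Vpreb1, -2.61 for Igll1 and -1.45 for Vpreb3 lay between the G-CSF and AMD3100 means. The pooled differences were -2.58 ± 0.29, -2.68 ± 0.40 and -3.00 ± 0.23 (adjusted p = 0.00843, 0.0124 and 0.00389). The B-cell adaptor Blnk, above background on 2 of 3 G-CSF arrays, differed by -3.40 ± 0.41 (adjusted p = 0.00896). Pax5, the B-lineage commitment factor, differed by -1.73 ± 0.17 (adjusted p = 0.00646) and the co-activator Pou2af1 by -2.81 ± 0.29 (adjusted p = 0.00646), while Ebf1 passed only the pooled comparison (-1.86, adjusted p = 0.0158).

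Immunoglobulin transcripts were picked out by the probe descriptions after values were seen. Of 110 such probes, 109 had lower levels in G-CSF cells, 10 were set apart as lower, and the log2 difference ran from -4.14 to 0.04 with a median of -1.19. The lowest was an antibody light-chain probe at chr6:70676692-70676751, with log2 levels of -1.65, -1.44 and -1.96 in G-CSF cells, 0.26, 0.15 and 0.54 in AMD3100 cells, 5.19, 5.01 and 3.55 in CWHM-823+tGro-b cells and 4.02, 3.26 and 1.76 in marrow. The CWHM-823+tGro-b and AMD3100 groups thus differed widely from each other for it. Related probes can share transcripts, so these probes are not independent. Over all genes the median log2 difference was -0.27, in the dimmest 5847 genes it was -0.59, and 0.38% were set apart as lower. The share of all genes with a lower level was not counted. Immunoglobulin probes that were not the brightest of their gene could not be called set apart.

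B cell markers moved with these genes. Of 11 listed, 8 were measured, and 6 passed as lower, 0 as higher and 1 (Pax5) was set apart. Their summed log2 level was 4.48 to 5.57 in G-CSF cells, 5.59 to 6.19 in AMD3100 cells and 4.89 to 5.57 in CWHM-823+tGro-b cells. All 8 were above background on every AMD3100 and CWHM-823+tGro-b array and 7 on every G-CSF array. Cd79a, part of the B cell receptor, had log2 levels of -3.14, -2.72 and -4.17 in G-CSF cells, -2.24, -2.31 and -1.46 in AMD3100 cells and -1.09, -0.63 and -1.42 in CWHM-823+tGro-b cells. T cell markers, 8 of 12 measured, passed as lower in 4 cases, and NK cell markers, 8 of 10 measured, in 1. Over all genes 28.9% passed as lower. The part of stray mature lymphocytes in the results was not tested.

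The MHC class II genes H2-Eb1 and H2-Ab1, whose products present antigen on B cells, dendritic cells and some progenitors, and Cd74 were set apart as lower, and H2-Eb1 had the largest decrease of the set-apart genes. H2-Eb1, the E beta chain, had log2 levels of -1.50, -4.46 and -3.65 in G-CSF cells, 1.65, 0.29 and 1.62 in AMD3100 cells and 1.68, 0.61 and 1.16 in CWHM-823+tGro-b cells, and was above background on 2 of 3 G-CSF arrays. Its difference was -4.37 ± 0.36 (adjusted p = 0.00414). Cd74, the invariant chain, had 0.23, -0.71 and -0.23 in G-CSF cells, 2.57, 1.88 and 3.19 in AMD3100 cells and 2.87, 2.04 and 1.80 in CWHM-823+tGro-b cells, a 6.20-fold lower level (adjusted p = 0.00748). H2-Ab1 was 2.32-fold lower (adjusted p = 0.0106). Of the related genes H2-DMa and H2-DMb2, looked up after these values were seen, neither passed the pooled comparison (0.09 and 0.36, adjusted p = 0.634 and 0.296). On the dendritic cell marker list 10 of 12 were measured, 8 passed as lower, 4 were set apart as lower (these 3 and Flt3) and the median was -1.08. The summed level was 5.25 to 5.77 in G-CSF cells, 6.32 to 6.73 in AMD3100 cells and 5.91 to 6.54 in CWHM-823+tGro-b cells. The dendritic markers Siglech and Batf3, which are more specific, differed by -0.48 (adjusted p = 0.0568) and -0.38 (adjusted p = 0.0821).

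Other large decreases had no common list. They were the lymphoid surface protein Ly6d (-2.11), the transcription factor Irf4 (-2.11), the mast cell protease Mcpt2 (-2.27), the kinase scaffold Akap12 (-2.25), the pore-forming protein Mpeg1 (-1.86), the lysosomal protein Plbd1 (-2.47), the mannose-6-phosphate receptor Igf2r (-2.01), the carbonic anhydrase Car1 (-1.87) and Ccdc177 (-2.62). Igf2r and Car1 had their highest blood levels in CWHM-823+tGro-b cells. Car1 had log2 levels of -1.94, -1.74 and -2.62 in G-CSF cells, -0.01, -0.98 and -1.79 in AMD3100 cells and 1.32, 0.05 and 0.05 in CWHM-823+tGro-b cells. The germ-cell helicase gene Ddx4 and the taste receptor gene Tas2r119 were not well above background on any G-CSF array and were at least 4.16-fold and 4.01-fold lower.

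Immediate early genes, which growth factor and stress signals switch on within minutes, changed in both directions. Of 34 measured, 1 was set apart as higher (Klf10) and 5 as lower (Nr4a3, Nr4a2, Egr3, Dusp6 and Fosl2). The pooled comparison passed 6 as higher and 12 as lower, with a median of -0.15; over all genes 15.5% passed as higher and 28.9% as lower with a median of -0.27, so these pooled counts lie near the background. Nr4a3, an orphan nuclear receptor, had log2 levels of -4.01, -4.31 and -4.24 in G-CSF cells, -1.80, -2.88 and -1.95 in AMD3100 cells and 0.58, 0.15 and 0.27 in CWHM-823+tGro-b cells; it exceeded background on 2 of 3 G-CSF arrays but on no marrow array. The treatments formed 3 steps, and CWHM-823+tGro-b exceeded AMD3100 by 2.54 (adjusted p = 0.0139). Nr4a2 differed by -1.50 ± 0.14 pooled (adjusted p = 0.00566), with only -0.63 against AMD3100 (adjusted p = 0.0147) and -2.37 against CWHM-823+tGro-b (adjusted p = 0.00314).

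Egr3, an early growth response factor, had log2 levels of 2.96, 2.72 and 3.90 in G-CSF cells, 4.78, 4.18 and 4.56 in AMD3100 cells and 5.50, 4.99 and 4.98 in CWHM-823+tGro-b cells, against -0.96, -0.82 and -2.04 in marrow. G-CSF cells were lower than the other mobilized cells and still far above marrow. Dusp6, a phosphatase that dampens ERK signalling, had 1.99, 1.53 and 1.91 in G-CSF cells, 3.74, 2.88 and 3.34 in AMD3100 cells and 3.45, 3.19 and 3.72 in CWHM-823+tGro-b cells (-1.57 ± 0.16, adjusted p = 0.00646); its marrow levels, 2.16, 2.16 and 2.37, lay slightly above those of G-CSF cells. Klf10 was 1.98-fold higher (adjusted p = 0.0117). Egr1 and Fos, the best known members, differed by -0.12 (adjusted p = 0.626) and -0.44 (adjusted p = 0.0447) and were not set apart. Among inflammatory genes the chemokine Ccl3 was the only one set apart as lower (-1.82 ± 0.19, adjusted p = 0.0065). Of 25 measured 8 passed as higher and 7 as lower, beside 15.5% and 28.9% of all genes.

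**Figure D3:**
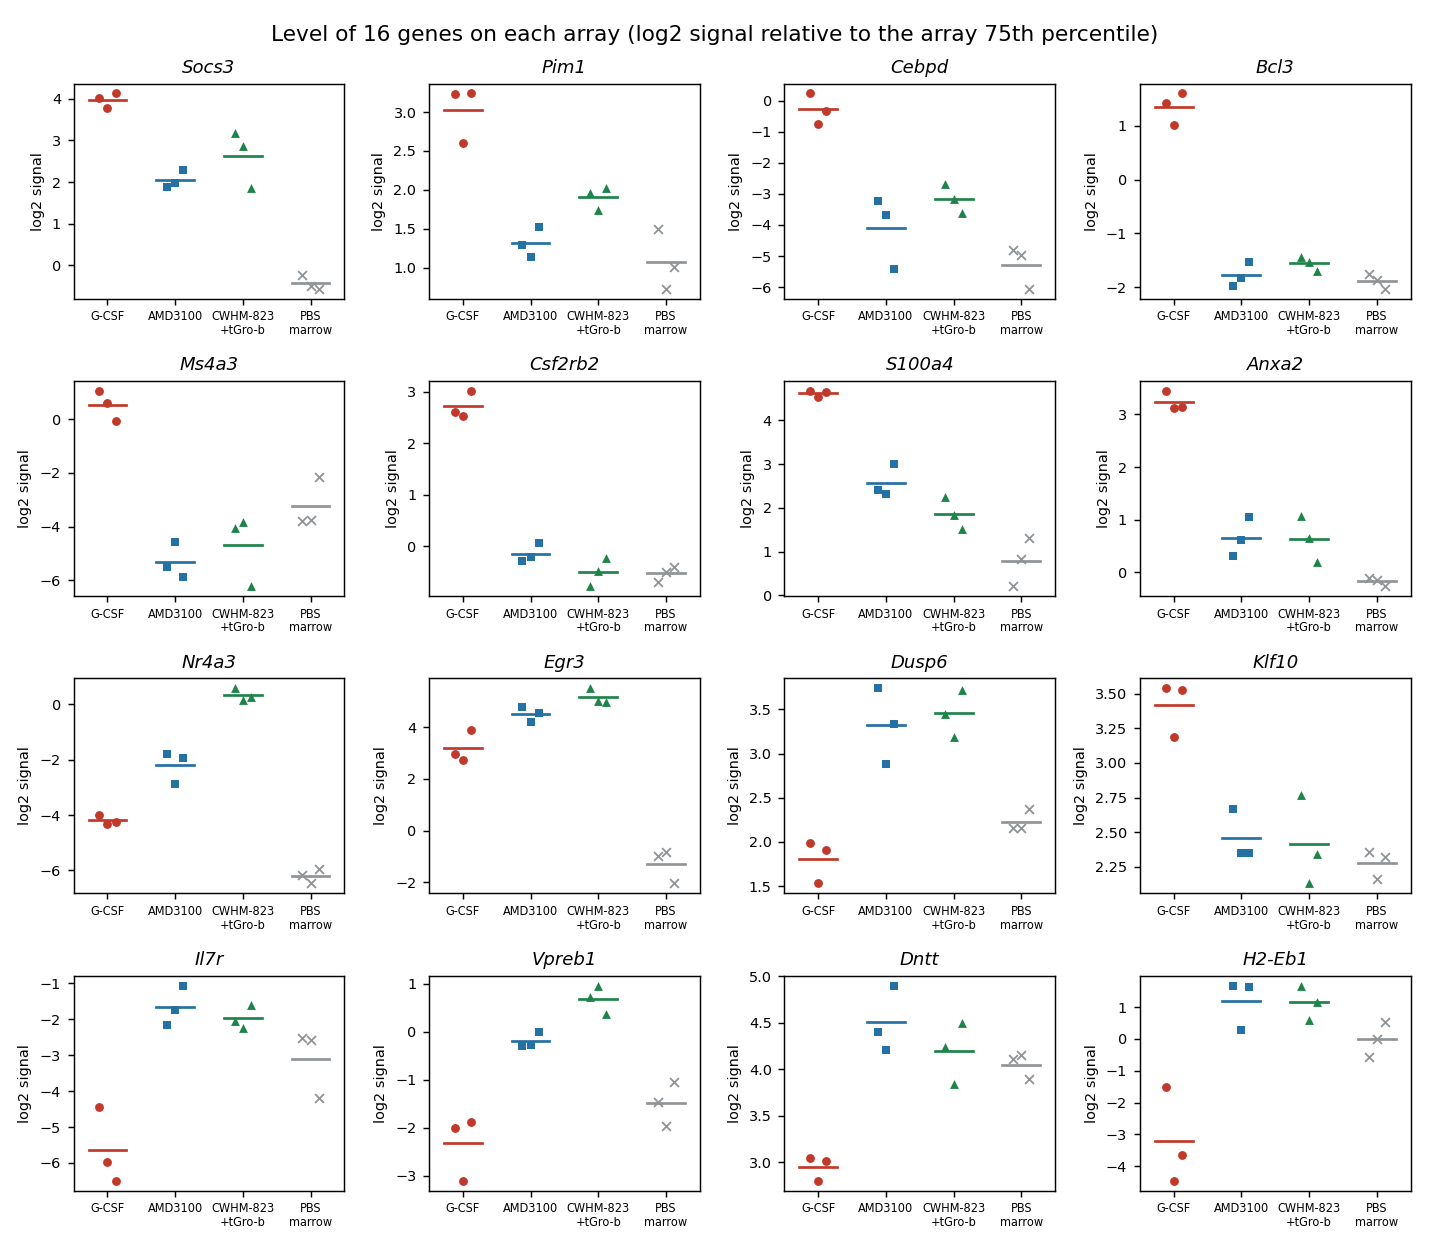
Log2 signal relative to the array's 75th percentile (y axis, scale set per gene) on each array for 16 genes, by row: STAT3-pathway, myeloid and cytoskeletal, immediate early, and lymphoid and MHC class II genes. Points are arrays and lines group means (n = 3); for Bcl3 the G-CSF mean of 1.35 stands above -1.78 and -1.56 in AMD3100 and CWHM-823+tGro-b cells, and for Nr4a3 the means run -4.19, -2.21 and 0.34.

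Of the genes for receptors that the other treatments address, Cxcr4, Cxcr2 and Itga4 did not pass the pooled comparison and Itgb1 did. Cxcr4 had log2 levels of 3.37, 3.81 and 3.00 in G-CSF cells, 3.97, 3.51 and 3.65 in AMD3100 cells and 3.75, 3.58 and 3.22 in CWHM-823+tGro-b cells (-0.22 ± 0.19, adjusted p = 0.345). Cxcr2 differed by 0.32 ± 0.23 (adjusted p = 0.255), and Itga4, the alpha chain of VLA-4, by 0.00 ± 0.16 (adjusted p = 0.983). These tests do not show that the levels were equal. Itgb1, the VLA-4 beta chain, was 1.97-fold higher (adjusted p = 0.0224), with 1.42 against AMD3100 (adjusted p = 0.00779) and 0.53 against CWHM-823+tGro-b (adjusted p = 0.271).

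Genes that define the sorted population were mixed. Kit, the stem cell factor receptor used in the sort, differed by -0.05 ± 0.13 (adjusted p = 0.769). Ly6a, which encodes the Sca-1 protein used in the sort, had log2 levels of 0.86, 0.68 and 0.74 in G-CSF cells, -0.95, -0.21 and -1.31 in AMD3100 cells and -0.17, -0.44 and -1.29 in CWHM-823+tGro-b cells (1.49 ± 0.25, adjusted p = 0.0135). Its difference from CWHM-823+tGro-b alone was 1.40 (adjusted p = 0.0856). Cd48, which is carried by progenitors rather than by the most primitive stem cells, was set apart at 1.20 ± 0.15 (adjusted p = 0.01). Cd34 passed pooled at 0.39 (adjusted p = 0.0451) and Mki67, the proliferation marker, differed by 0.09 ± 0.12 (adjusted p = 0.541). Of 37 stem cell genes measured 0 were set apart, 9 passed as higher and 4 as lower, beside 15.5% and 28.9% of all genes. The list's median was -0.05.

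Metabolic and growth lists shifted in level without any gene being set apart. Of 41 respiratory chain genes, 27 passed as higher and 0 as lower, with medians of 0.53 pooled, 0.76 against AMD3100 and 0.30 against CWHM-823+tGro-b. Cholesterol synthesis genes passed as higher in 12 of 29, glycolysis and hypoxia genes in 12 of 29 and heat shock and unfolded protein genes in 15 of 29. DNA replication genes did so in 13 of 35 and ribosome biogenesis and MYC genes in 9 of 32. In that order 0, 1, 1, 2 and 1 genes of these lists passed as lower. Their medians against AMD3100 were 0.68, 0.46, 0.66, 0.67 and 0.56. Against CWHM-823+tGro-b the medians were smaller, at 0.30, 0.25, 0.21, 0.22 and 0.09. Over all genes 15.5% passed as higher and 28.9% as lower. Beside these medians, the brightest 5848 genes had a median of 0.06 and all genes one of -0.27; the part of brightness in these lists was not tested. Of 30 mitosis genes 8 passed as higher and 2 as lower, and only Aurkb was set apart, as higher. Aurkb was above background on 3 G-CSF, 0 AMD3100 and 1 CWHM-823+tGro-b arrays, and at least 1.61-fold higher. Hmmr passed as lower (-0.75, adjusted p = 0.017). Cell cycle inhibitors were set apart once, by Cdkn2d (4.31-fold higher, adjusted p = 0.00392). Of 35 interferon response genes 11 passed as higher and 7 as lower. Tnfsf10 and Gbp3 were set apart as higher, while Rsad2 passed as lower (-1.20, adjusted p = 0.0108). Erythroid genes passed as higher in 9 and as lower in 5 of 25 measured, and red cell markers, 5 of 9 measured, summed to 3.06 to 3.15 in G-CSF, 1.05 to 1.57 in AMD3100 and 3.37 to 4.09 in CWHM-823+tGro-b cells.

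**Figure D4:**
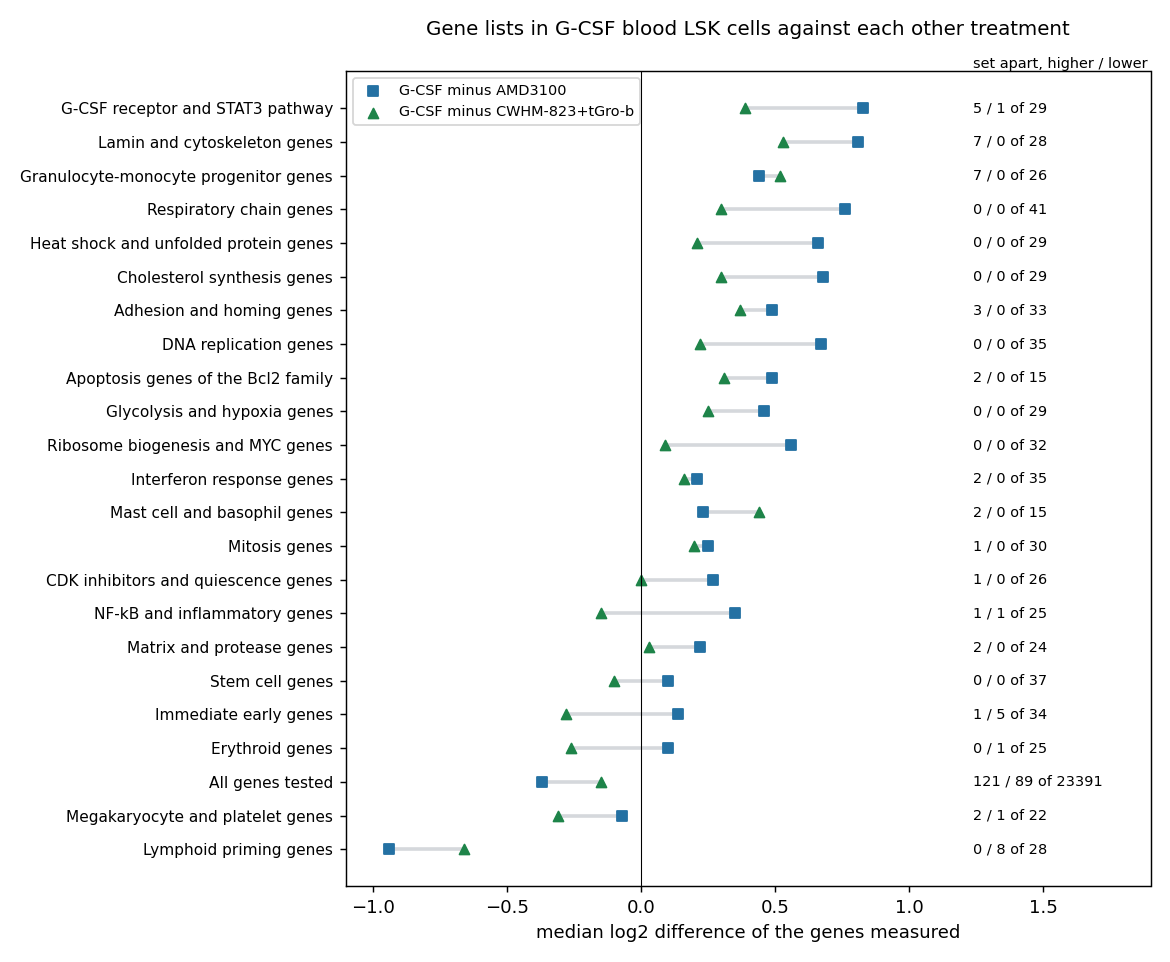
Median log2 difference of each gene list's measured members (x axis), G-CSF minus AMD3100 as squares and G-CSF minus CWHM-823+tGro-b as triangles, ordered by the pooled median. The counts at the right are members set apart as higher and lower; the G-CSF receptor and STAT3 list sits at 0.83 and 0.39, lymphoid priming genes at -0.94 and -0.66, and all genes at -0.37 and -0.15.

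The number of set-apart genes depended on single arrays. It was 37, 91 and 23 without G-CSF replicate 1, 2 and 3, 152, 139 and 124 without AMD3100 replicate 1, 2 and 3, and 70, 44 and 51 without CWHM-823+tGro-b replicate 1, 2 and 3. Set apart in every one of these 9 fits were 18 of the 210, among them Bcl3, Csf2rb, Csf2rb2, Ms4a3, Selp, Col18a1, Dlk1, Pirb, Vldlr, Pmaip1, Nr4a3 and Vpreb3. The count for CWHM-823+tGro-b against AMD3100, 1802 in full, was 0 to 36 in these fits. Of the 210, 162 remained after quantile normalization, 115 in the authors' table, 95 without the slide term and 61 under all of these. Il7r, Cebpd, Pim1, Cd48, Flt3 and Bbc3 had the same direction under every setting they were measured in, but were set apart in only 9 of 18, 9 of 18, 7 of 20, 5 of 20, 6 of 20 and 6 of 20 of them.

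**Figure D5:**
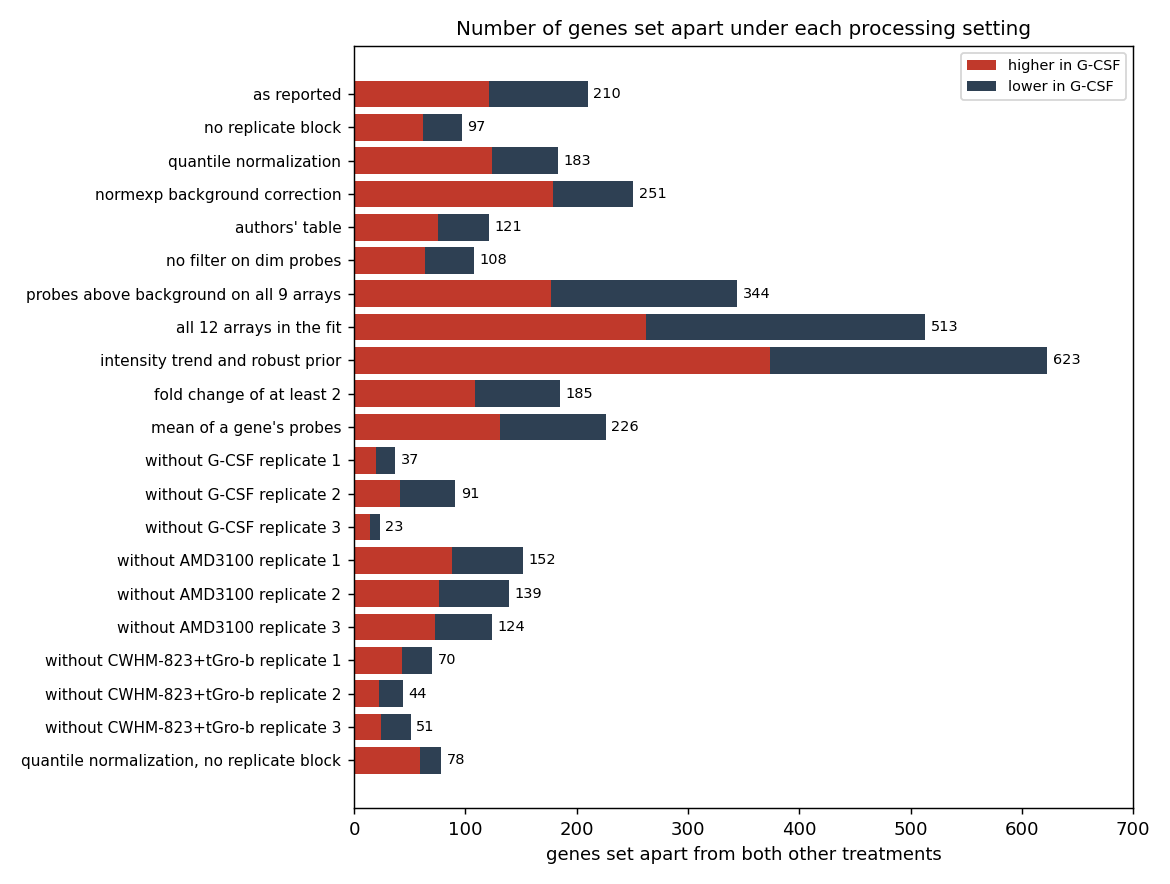
Number of genes set apart from both other treatments (x axis) under each processing setting, with genes higher in G-CSF cells in red and lower ones in dark blue. The count was 210 as reported and ran from 23 without G-CSF replicate 3 to 623 with an intensity trend and robust prior.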

How the data were processed

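Each of the 12 arrays measured RNA of sorted LSK cells in 1 colour (Cy5). The authors deposited scanner output made with Agilent Feature Extraction 11.5.1.1, per the submitters' processing notes; its background-corrected red signal intensity was used. The authors' deposited table of processed signal intensity, whose processing is not given in the sources used here, was an alternative; its column medians were 937.9 to 944.6, and its values correlated at 0.998 or above with the scanner values. Probe coordinates are mm9, per the file headers.

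Control and outlier spots were removed, spots of a probe were averaged (39429 probes), and log2 intensity minus the array's 75th percentile was taken. A probe was kept if well above background on all 3 arrays of a blood group (29095 probes), and the brightest probe stood for a gene (23391 genes). Arrays of a dim group that were not above background were held at the array's lowest signal above background to give "at least" folds. An adjusted p given with such a fold is that of the measured difference, not of the bound. Through accessions, 28330 probes were matched to the RefSeq gene table.

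limma 3.58.1 (R 4.3.3) fitted group and slide over the 9 blood arrays (4 residual and 2.89 prior degrees of freedom), with 2-sided tests, Benjamini-Hochberg adjustment over all genes of a comparison and a threshold of 0.05. A fold in the text comes from the pooled comparison unless another is named. Slides pair the arrays: the 9 same-slide pairs had deviations from their group means correlated at 0.254 to 0.617 (median 0.438). The 18 other pairs had a median of -0.243, which follows from centring each group on its own mean and adds no further support. In data simulated for 23391 genes, 100 genes at each log2 size were changed equally against both other treatments, with independent noise. Of these, 5% at a log2 of 1 and 63% at 2 were set apart, with 0 unchanged genes set apart. In the real data 44.4% of genes passed the pooled comparison, so the simulation gives no error rate for the real calls.

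The comparison, the 22 gene lists and the 10 marker lists were chosen with earlier results of these data known. The rule named the 15 largest increases and 15 largest decreases among set-apart genes above background on all 9 arrays, the 3 largest bounds each way, up to 4 passing members of a list and fixed pathway genes, of which 1 is not reported here. Other genes named in the text, among them Blnk, Cst7, Egr1, Egr3, Elane, Fos, Fosl2, Il4ra, Irf8, Klf10, Lgals1, Mpo, Prtn3, Siglech, Batf3, Tpm4, Actb and Lmna from the lists, were chosen after their values were seen. Marrow arrays entered no test. Alternatives were other normalization, background correction, filters, fits and left-out arrays. The number of arrays limits the precision.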

Additional observations from a re-analysis of the deposited data

How the results depend on the processing

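Counts are given as pooled comparison and set-apart genes, beside 10389 and 210. Without the replicate block the counts were 659 and 97. With quantile normalization and no replicate block, added after seeing the data, they were 702 and 78. The fold threshold of 2 gave 2855 pooled genes. The authors' table gave 121 set-apart genes, no filter 108, only probes above background on all arrays 344, all 12 arrays 513, and the intensity trend with robust prior 623. Leaving out 1 array gave 129 to 9812 pooled (129 without G-CSF replicate 1, 133 without G-CSF replicate 3, 5506 without CWHM-823+tGro-b replicate 2, 6526 without G-CSF replicate 2 and 6920 without CWHM-823+tGro-b replicate 3) and 23 to 152 set apart.

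G-CSF against AMD3100 (14096) gave 5590 without the block, 7330 at a fold of 2, 4744 with quantile normalization and no block, and 7469 to 14302 with an array left out. G-CSF against CWHM-823+tGro-b (232) gave 110 without the block, 132 in the authors' table, 116 without a filter, 388 with probes above background on all arrays, 571 with all 12 arrays, 703 with the trend, 97 with quantile normalization and no block, and 26 to 172 with an array left out. CWHM-823+tGro-b against AMD3100 (1802) gave 31 without the block, 3322 with quantile normalization, 71 with both, 3066 in the authors' table, 29 without a filter, 4202 with probes above background on all arrays, 4088 with all 12 arrays, 5304 with the trend, 924 at a fold of 2 and 0 to 36 with an array left out. The 0 came from limma without CWHM-823+tGro-b replicate 1, with 5106 genes at an unadjusted p under 0.05.

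Mitf, a transcription factor gene named by the rule, with probes of opposite sign (-0.76 and 0.81), changed direction to -0.62 under quantile normalization with or without the block and under normexp correction, and to -0.61 in the authors' table. Itga4, at 0.00, was 0.05 with normexp correction, 0.06 with the mean of its probes and -0.09 to 0.06 with an array left out. Kit, at -0.05, was -0.13 to 0.00 with an array left out. The cause of these shifts was not tested. No other gene value recomputed under these settings was reversed. In 475 recomputed gene values the gene no longer passed the pooled comparison. In 111 recomputed list medians the shift was at least the standard deviation between slides. Signal over background limits the genes given only as bounds, and AMD3100 arrays had the dimmest signal.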
